A study of Mus musculus with 4 samples.

Results

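A list of 36 imprinted genes was read in germ and somatic cells of the P8 mouse testis. Its members are the rows of the deposited count matrices whose gene symbol is in the list, and 35 of the 36 symbols had a row among 30828 listed genes. Rian, a noncoding RNA gene that lies between Meg3 and Mirg, had no row. The 35 lie on 11 chromosomes, and 30 of them are annotated as protein coding in GENCODE M21. Control cells came from Cnot3flox/flox testes, labelled wild-type, and Cnot3-cKO cells from Cnot3flox/flox testes that also carried Ddx4-creER, a tamoxifen-inducible Cre driven by a germ cell promoter, so the somatic cells of both genotypes were not the target of the Cre. Mice of both genotypes had received 4-OHT, the active form of tamoxifen, and were 8 postnatal days old. The labels start the injections on day 1 in each of the 4 samples and end them on day 1, 2, 3 and 4 in turn, whereas the study's methods describe a single schedule. CD9+/THY1+ testis cells were sorted and read with 10x 3′ tags.

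Imprinted genes are expressed mostly from the copy inherited from one parent, because DNA methylation set in the egg or sperm line marks the parental copies differently. In males the marks of paternally methylated regions, such as those near H19, Dlk1-Meg3, Rasgrf1 and Zdbf2, are set in the germ line before birth. Many imprinted genes control growth of the fetus and placenta. UMIs, the molecule tags that count captured transcripts, carry no record of the parental copy, so the values are levels summed over both copies and do not measure imprinting.

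Each genotype was deposited as 1 matrix that merges 2 samples with no map from cells to samples, and whether these are 2 runs of 1 library or separate mice is not given in the sources used here. Each genotype was therefore treated as 1 sample, with no replicate check and no p-value. The matrices held 181550221 UMIs in control and 168770743 in Cnot3-cKO. After removal of barcodes over 20% mitochondrial UMIs, 8259 and 9268 cells were used, and 18 cell barcodes were found in both matrices. Clusters were formed without the members and named from marker lists. There were 1120 and 464 germ-like cells, 2886 and 4363 Sertoli-like, 1293 and 1607 peritubular myoid-like, 2408 and 2325 stroma-like, 55 and 63 macrophage-like and 37 and 42 endothelial-like cells. Myoid-like and stroma-like cells together are called interstitial. A level is given in CPM, the UMIs of a gene per 1000000 UMIs of the class. A ratio is the log2 of the Cnot3-cKO level over the control level. Both carry 95% exact intervals in parentheses, which cover counting error and not the spread between animals. Where a pair of values is given, control comes first and Cnot3-cKO second. The Cnot3 transcript was at 70.1 and 37.6 CPM in the germ-like class, a ratio of -0.90, against ratios of 0.08 in Sertoli-like and -0.02 in interstitial cells, although 3′ tags can lie outside the deleted part of the gene.

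The members took the largest share of RNA in stroma-like cells and the smallest in the germ-like class. The members summed to 810.4 and 770.5 CPM in the germ-like class, 2079 and 2105 in Sertoli-like, 4049 and 4056 in myoid-like and 9221 and 8711 in stroma-like cells, which in control is 0.081% and 0.922% of UMIs for the first and last. Of 34 members with at least 100 UMIs over 5 classes, 19, or 55.9%, had their highest control level in interstitial cells, where 16.3% of all genes tested had theirs. Another 6 were highest in Sertoli-like cells (19% of all genes), 4 in the germ-like class (34.2%), 4 in endothelial-like cells (16.4%) and 1, Slc22a18, in macrophage-like cells (14.1%). The highest class was the same in Cnot3-cKO for 12, 5, 3, 4 and 0 of these. Endothelial-like and macrophage-like cells are few, and with free RNA subtracted 15 members were highest in interstitial and 11 in endothelial-like cells. The shares of all genes above were taken without that subtraction, so the 15 and 11 cannot be set against them. Rasgrf1, a Ras exchange factor, had 76 UMIs over those classes and was not counted.

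**Figure D1:**
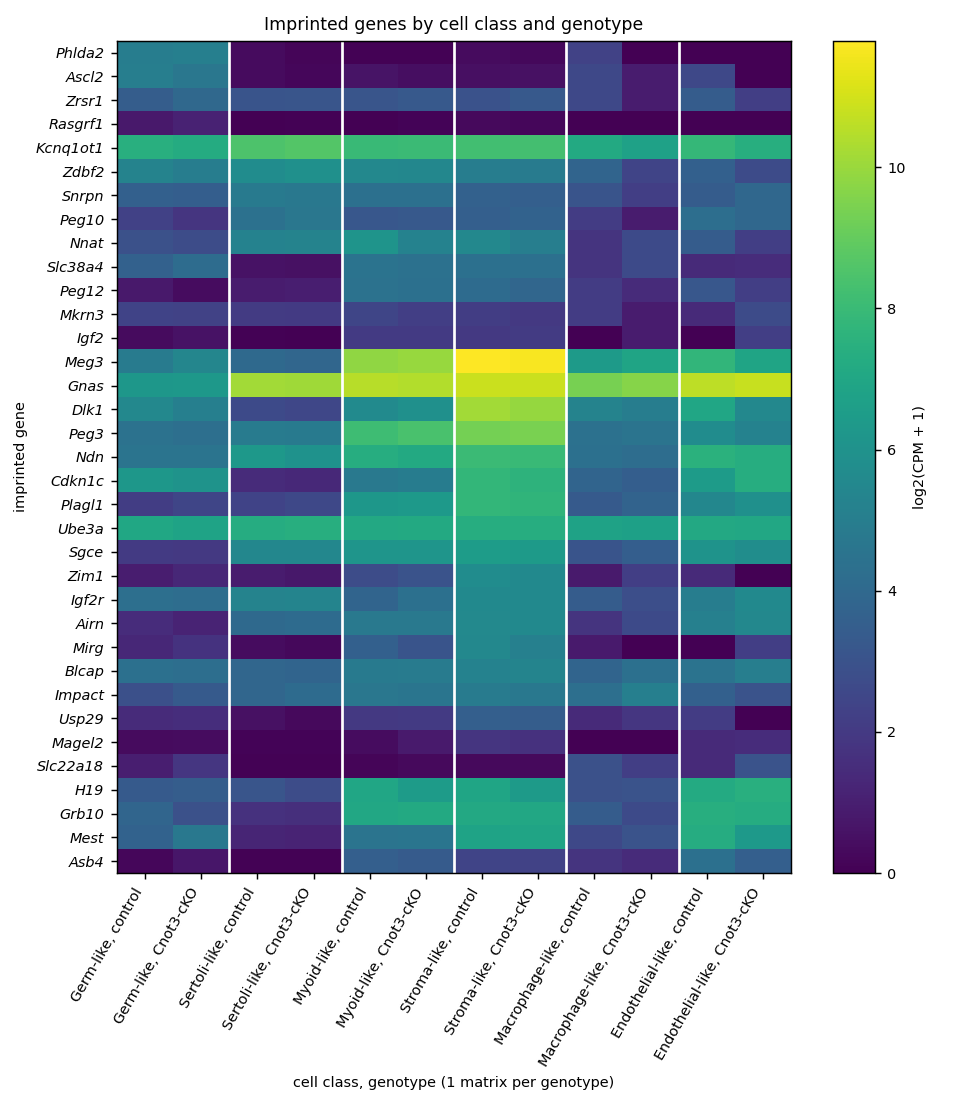
Level of 35 imprinted genes (rows) in 6 cell classes of each genotype (columns), as log2(CPM + 1) by colour. Rows are ordered by the class with the highest control level, and Phlda2 and Ascl2 are brighter in the germ-like columns than in the somatic ones.

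A pair of maternally expressed genes of distal chromosome 7 stood out in germ cells. Phlda2 (chr7:143501545-143503150, minus strand, mm10), a PH domain protein known for restraining placental growth, had a germ-like level of 30.5 CPM (28.9 to 32.1) in control and 33.4 CPM (30.96 to 35.9) in Cnot3-cKO. Its Sertoli-like level was 0.265 and 0.134 CPM, where free RNA alone would give 0.224 and 0.453 CPM, and its interstitial level was 0.2 and 0.129 CPM, where free RNA would give 0.575 and 0.274 CPM. The germ-like level was 152-fold and 259-fold the interstitial one. Ascl2 (chr7:142966829-142969264, minus strand), a bHLH transcription factor of the trophoblast, had 31.7 CPM (30.1 to 33.3) and 24.9 CPM (22.8 to 27.1) in the germ-like class against 0.455 and 0.406 CPM in interstitial cells, which is 69.5-fold and 61.4-fold. Phlda2 was thus near or below its free RNA estimate in the large somatic classes, and Ascl2, for which no such estimate is given, was low there. The estimates pool the markers of other classes. In Sertoli-like Cnot3-cKO cells the 6 erythroid markers raise them, with 352 CPM against 79.7 CPM in barcodes of at most 100 UMIs. In interstitial control cells they do so with 151 CPM against 24.8 CPM.

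The share of cells with a UMI showed the same division. With each cell thinned to 7500 UMIs, Phlda2 had a UMI in 16.6% (14.5 to 18.9) of control and 17.7% (14.3 to 21.5) of Cnot3-cKO germ-like cells, and in 0.243% (0.0976 to 0.499) and 0.0688% (0.0142 to 0.201) of Sertoli-like cells. For Ascl2 the shares were 20.9% (18.5 to 23.4) and 14.01% (10.98 to 17.5) against 0.243% (0.0976 to 0.499) and 0.138% (0.0505 to 0.299). Without thinning, control shares were 44.9% and 61.2% in the germ-like class, at a median of 41599.5 UMIs, and 0.381% for each gene in Sertoli-like cells, at a median of 13287.5 UMIs.

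The promoter windows of Phlda2 and Ascl2 are shown because these members separated germ from somatic cells most. They come from RefSeq on GRCm38.p6, run from 250 bases before to 50 bases after an annotated start, and are written 5′ to 3′ on the strand of the gene, with CG pairs in capitals.
Phlda2, chr7:143502475-143502774, minus strand: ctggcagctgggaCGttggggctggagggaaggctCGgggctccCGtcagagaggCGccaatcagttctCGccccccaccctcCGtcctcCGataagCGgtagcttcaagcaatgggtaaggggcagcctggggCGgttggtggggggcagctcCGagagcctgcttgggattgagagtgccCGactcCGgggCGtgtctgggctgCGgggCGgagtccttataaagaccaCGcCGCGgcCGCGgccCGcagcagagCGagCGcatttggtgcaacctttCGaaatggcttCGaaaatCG
Ascl2, chr7:142969215-142969514, minus strand: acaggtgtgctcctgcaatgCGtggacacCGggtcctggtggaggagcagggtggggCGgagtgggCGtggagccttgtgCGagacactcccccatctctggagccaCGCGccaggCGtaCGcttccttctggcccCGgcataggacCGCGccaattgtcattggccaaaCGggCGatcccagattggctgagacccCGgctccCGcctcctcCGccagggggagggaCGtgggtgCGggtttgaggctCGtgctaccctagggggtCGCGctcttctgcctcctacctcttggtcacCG
The Phlda2 window holds 26 CG pairs, more than 83.1% of the 32851 windows of this length, and the Ascl2 window 23, more than 78.5%, where the median window holds 7. On either strand GGGCGG, the GC box, occurs 2 times in the first and 1 time in the second, and in 35.7% of all windows. CCAAT occurs 1 and 3 times, and in 37.4% of all windows. TATAAA occurs 1 and 0 times, and in 13.6% of all windows. These are matches of letters, and methylation was not measured.

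Cdkn1c, a maternally expressed inhibitor of cyclin-dependent kinases that starts 42.1 kb from Phlda2, was shared by germ cells and stroma. Its level was 74.8 and 65.1 CPM in the germ-like class, 225 and 198 CPM in stroma-like and 26.2 and 29.7 CPM in myoid-like cells. The Sertoli-like level of 1.76 and 1.6 CPM was below the estimated 2.27 and 3.52 CPM of free RNA, of which the Cnot3-cKO value is raised by erythroid markers. Slc22a18, a maternally expressed transporter gene, lies 2210 bases from Phlda2 and had a germ-like level of 0.965 and 2.6 CPM against 0.0482 and 0.0334 CPM in Sertoli-like cells. Kcnq1ot1, the paternal noncoding RNA that silences this domain, is transcribed within Kcnq1 on the other strand and was present in every class, with 171 and 149.9 CPM in the germ-like class, 362 and 400.3 CPM in Sertoli-like and 279.9 and 291 CPM in interstitial cells.

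At the other end of the distal chromosome 7 group lie H19, a maternal noncoding RNA, and Igf2, a paternal growth factor gene. H19 had 121 and 86.3 CPM in interstitial and 145 and 172 CPM in endothelial-like cells, and 7.66 and 5.71 CPM in Sertoli-like cells. Its germ-like level was 9.18 and 9.99 CPM, where free RNA would give 1.32 and 1.12 CPM. Igf2 was low throughout, with 2.9 and 3.12 CPM in interstitial cells and 12 and 10 UMIs in the germ-like class. An exon of H19 holds the hairpin of miR-675, whose mature sequences are given because H19 was among the members that differed in somatic cells. They are from RefSeq, with the seed, bases 2 to 8, in capitals. These libraries do not count mature miRNAs.
mmu-miR-675-5p, chr7:142577112-142577133, minus strand: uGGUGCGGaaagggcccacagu
mmu-miR-675-3p, chr7:142577078-142577099, minus strand: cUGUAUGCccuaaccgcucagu

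The Dlk1-Meg3 locus of chromosome 12 belonged to the stroma. Meg3, a maternal noncoding RNA, had 3547 and 3265 CPM in stroma-like, 915 and 1017 CPM in myoid-like and 15.5 and 14.00 CPM in Sertoli-like cells. Dlk1, a paternal gene for a membrane protein related to Notch ligands, had 1151 and 984 CPM in stroma-like and 48.5 and 59.6 CPM in myoid-like cells, which is 23.7-fold and 16.5-fold. Mirg, a maternal RNA over which 14 miRNA hairpins are annotated, had 43.9 and 33.9 CPM in stroma-like cells. Against free RNA the germ-like levels of these 3 genes differed. Dlk1 had 44.6 and 32.8 CPM where free RNA would give 6.42 and 5.78 CPM. Meg3 had 28.98 and 41.3 CPM where free RNA would give 19.1 and 20.5 CPM. Mirg had 1.5 and 2.27 CPM where free RNA would give 0.365 and 0.35 CPM. Of the 3, Meg3 was therefore the nearest to background.

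Genes of the Peg3 locus, also on chromosome 7, followed the stroma too. Peg3, a paternal zinc finger gene, had 644 and 684 CPM in stroma-like, 283 and 335 CPM in myoid-like and 28.8 and 27.1 CPM in Sertoli-like cells, and a germ-like level of 21.1 and 18.8 CPM. Usp29, a paternal gene of the ubiquitin protease family, starts 147 bases from Peg3 on the other strand and had 10.95 and 10.1 CPM in stroma-like cells. The maternal Zim1, a zinc finger gene, had 51.5 and 47.3 CPM there and 0.867 and 0.718 CPM in Sertoli-like cells. These 3 genes had their highest level in stroma-like cells among the 6 classes in both genotypes, and so did Plagl1, a paternal zinc finger gene of chromosome 10, with 222 and 209 CPM in stroma-like cells and a germ-like level of 3.43 and 4.59 CPM.

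The Snrpn region, which in humans is tied to Prader-Willi and Angelman syndromes, was split between classes. Ndn, a MAGE family protein, had 259 and 254 CPM in stroma-like cells and a germ-like level of 22.6 and 21.9 CPM, and Peg12 had 20.9 and 19.6 CPM in myoid-like cells and 34 and 7 UMIs in the germ-like class. Snrpn, a spliceosome protein, was highest in Sertoli-like cells, with 27.3 and 25.7 CPM, but is uncertain because it shares its locus with Snurf, which has a row of its own. Ube3a, a ubiquitin ligase imprinted in neurons, varied little, from 109 CPM in macrophage-like to 164 CPM in stroma-like control cells. Mkrn3, a ring finger gene, had 4.1 and 4.07 CPM in the germ-like class and 3.73 and 3.12 CPM in interstitial cells. Magel2, another MAGE family gene, had 2.59 and 2.25 CPM in stroma-like cells and 13 and 7 UMIs in the germ-like class.

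Gnas, which encodes the stimulatory G protein alpha subunit, separated germ from soma in the opposite sense to Phlda2. Its germ-like level was 74.96 and 77.1 CPM, where free RNA would give 21.96 and 30.3 CPM, against 1144 and 1121 CPM in Sertoli-like and 1714 and 1649 CPM in interstitial cells, and the interstitial level was 22.9-fold and 21.4-fold the germ-like one. The 3′ tags do not tell its alternative first exons apart. Sgce, encoding epsilon-sarcoglycan, was likewise low in the germ-like class, with 3.05 and 2.84 CPM against 82.5 and 78.8 CPM in interstitial cells. Peg10, a gene derived from a retrotransposon, starts 99 bases from Sgce on the other strand and was highest in Sertoli-like cells, with 19.9 and 24.6 CPM against 9.94 and 10.8 CPM in interstitial cells. This divergent pair therefore differed in its leading class.

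Endothelial-like cells had the highest level of H19, Asb4, Mest and Grb10 among the 5 classes in both genotypes, on few cells. Against 9.67% and 5.23% of UMIs in interstitial cells, the estimated share of free RNA was 42.8% and 29.2% in endothelial-like cells. Grb10, an adaptor of insulin and IGF receptors, had 168 and 156 CPM there, from 103 and 87 UMIs, 136 and 138 CPM in interstitial and 2.19 and 1.99 CPM in Sertoli-like cells. Mest, a member of the alpha/beta hydrolase family, had 157 and 82.6 CPM in endothelial-like and 114 and 116 CPM in stroma-like cells. Asb4 had 19.6 and 10.8 CPM in endothelial-like cells, from 12 and 6 UMIs. Igf2r, the maternal receptor that clears IGF2, had 37.6 and 38.7 CPM in Sertoli-like and 35.1 and 36.1 CPM in interstitial cells, although stroma-like cells alone had 46.7 and 47.3 CPM. Airn, its paternal antisense RNA, overlaps it by 28354 bases and had 39.01 and 38.7 CPM in interstitial cells and a germ-like level of 1.87 and 1.28 CPM.

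Of the remaining members, Zdbf2, a zinc finger gene, was highest in Sertoli-like cells, with 52.6 and 60.1 CPM and a germ-like level of 38.01 and 30.8 CPM. Slc38a4, an amino acid transporter, had 20.4 and 19.7 CPM in interstitial and 0.482 and 0.451 CPM in Sertoli-like cells and a germ-like level of 11.8 and 17.2 CPM. Zrsr1, a gene for a splicing-related protein inside Commd1, had its highest level in the germ-like class, with 10.1 and 14.9 CPM, but overlaps exons of Commd1 on the other strand. Nnat, a paternal proteolipid gene inside an intron of Blcap, had 67.96 and 36.2 CPM in myoid-like, 44.1 and 32.1 CPM in stroma-like and 36.6 and 37.9 CPM in Sertoli-like cells, and Blcap had 33.6 and 34.97 CPM in interstitial cells. Impact, a paternal gene for a regulator of the amino acid stress kinase GCN2, had 27.3 and 24.5 CPM in interstitial cells and a germ-like level of 6.43 and 9.23 CPM.

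The germ-like class was next divided into stages by clusters formed without members, stage markers and cell-cycle genes. SSC-like cells are named for the stem pool, Progenitor-like cells for Neurog3 and its companions, Differentiating-like cells for Kit, Stra8 and others, and Meiotic-like cells for genes of meiotic entry such as Meioc. Control held 86, 216, 407 and 107 cells of these 4 stages and 304 in an unnamed cluster, and Cnot3-cKO held 299, 8, 88 and 47, with 22 unnamed. Of the 299 SSC-like Cnot3-cKO cells, 282 lay in a cluster with 1 control cell. In control, 20 of the 24 members with at least 100 UMIs over the stages differed at least 2-fold between the highest and lowest stage, where 51.4% of all genes tested did. Of the 20, 8 were highest in SSC-like, 2 in Progenitor-like, 5 in Differentiating-like and 5 in Meiotic-like cells. The stage of the highest level was not counted over all genes, so this split cannot be read as particular to the members.

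Phlda2 had a wide range among the 24. From SSC-like to Meiotic-like cells it had 1.76, 77.8, 14.2 and 7.01 CPM in control, a 44.2-fold range, and 38.6, 118, 16.8 and 3.09 CPM in Cnot3-cKO. For Slc38a4, whose lowest stage had 1 UMI, the range was at least 29.5-fold when computed against 3 counts in that stage. The control SSC-like value of Phlda2 rests on 6 UMIs. After thinning, 0 of 86 control SSC-like cells had a Phlda2 UMI (an exact interval of 0 to 4.2%), against 41.2% (34.6 to 48.1) of control Progenitor-like and 18.4% (14.2 to 23.3) of Cnot3-cKO SSC-like cells. Without thinning these shares were 5.81%, 85.6% and 51.2%. The SSC-like ratio of 4.45 (3.32 to 5.91) came from the cluster of Cnot3-cKO cells, where Phlda2 had 40.2 CPM. In the SSC-like cluster that holds cells of both genotypes it had 1.78 and 1.67 CPM.

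Ascl2 took another course, with 19.1, 22.97, 48.6 and 14.01 CPM in control and 20.7, 15.6, 40.8 and 22.2 CPM in Cnot3-cKO from SSC-like to Meiotic-like cells. Its highest level lay in Differentiating-like cells of both genotypes. Phlda2 and Ascl2, whose starts lie 533.9 kb apart, thus shared their highest class but not the stage of the highest level.

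Several members fell from SSC-like to Meiotic-like cells. Cdkn1c had 101, 95.5, 38.8 and 15.9 CPM in control and 76.4, 62.4, 20.8 and 18.5 CPM in Cnot3-cKO. Slc38a4 had 28.2, 22.8, 5.5 and 0.319 CPM in control, the last from 1 UMI, and 22.3, 31.2, 5.86 and 1.85 CPM in Cnot3-cKO. Gnas had 129, 61.96, 64.2 and 29.3 CPM in control and 87.96, 57.9, 55.7 and 25.9 CPM in Cnot3-cKO. The SSC-like level was above the Meiotic-like level for each of the 3 in both genotypes.

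Other members rose. Kcnq1ot1 had 78.6, 121, 198 and 340.5 CPM in control and 119, 89.1, 202 and 304 CPM in Cnot3-cKO. Zdbf2 had 17.3, 33.3, 44.5 and 86.95 CPM in control and 20.1, 66.8, 45.4 and 84.6 CPM in Cnot3-cKO. Ube3a had 83.3, 108, 156 and 204 CPM in control and 88.3, 105, 161 and 204 CPM in Cnot3-cKO. The Cnot3-cKO Progenitor-like values rest on 8 cells, and apart from them each of these genes rose from stage to stage in both genotypes. Dlk1, with 16.7, 49.5, 57.9 and 18.2 CPM, and Grb10, with 2.93, 8.78, 24.7 and 13.1 CPM, were highest in Differentiating-like control cells. H19 had 22.9, 3.16, 9.78 and 10.2 CPM in control, with its lowest level in Progenitor-like cells, from 31 UMIs.

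**Figure D2:**
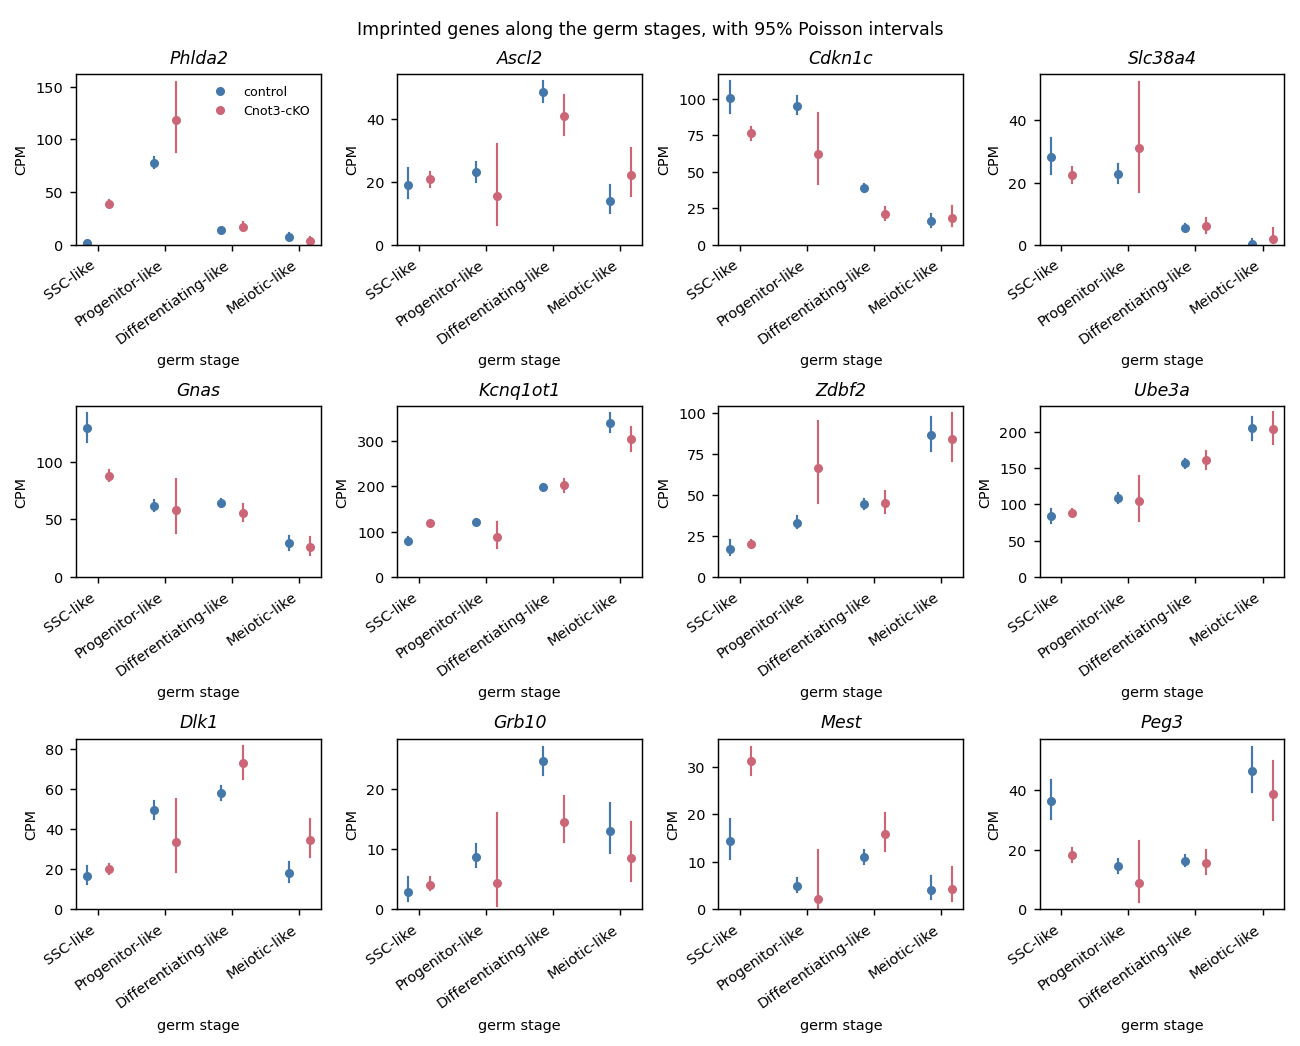
CPM of 12 imprinted genes (panels) in 4 germ stages (x axis) of control (blue) and Cnot3-cKO (red), with 95% Poisson intervals as bars and axes that start at 0. Cdkn1c, Slc38a4 and Gnas are lower in Meiotic-like than in SSC-like cells and Kcnq1ot1, Zdbf2 and Ube3a are higher, and the wide Cnot3-cKO bars at the Progenitor-like stage rest on 8 cells.

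The comparison of genotypes asks how levels differed after loss of Cnot3, a subunit of the CCR4-NOT complex that shortens poly(A) tails. In the germ-like class 29 members had at least 100 UMIs over both genotypes. Of these, 3 were at least 1.5-fold higher in Cnot3-cKO, where 7.37% of all 12515 genes tested were, and 2 were at least 1.5-fold lower, where 3.74% were. The members had a median ratio of -0.09 and all genes 0.02. Among maternally expressed members 2 of 8 tested were higher and 0 lower, and among paternally expressed ones 1 of 17 was higher and 1 lower. The make-up of the class differed between genotypes as described. With both genotypes weighted to the same clusters 0 members were higher and 1, Grb10, lower. Without the SSC-like cluster of Cnot3-cKO cells 0 were higher and 2, Cdkn1c and Peg10, lower. The sign of the ratio turned for 19 of the 29 members without that cluster and for 12 of the 29 with the same make-up. The shares of all genes above belong to the class as a whole. None are given for these 2 alternatives, so their counts cannot be set against all genes.

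Markers of other classes also differed in the germ-like class. The 10 Sertoli markers summed to 58.5 CPM in control and 98.4 CPM in Cnot3-cKO, with 9 of 10 higher and none at 0. The 8 stroma markers summed to 117 CPM in control and 133 CPM in Cnot3-cKO, with 6 of 8 higher and none at 0. The 9 macrophage markers summed to 1.69 CPM in control and 4.73 CPM in Cnot3-cKO, with 7 of 9 higher and Fcgr1 at 0 in control. The 8 endothelial markers summed to 46.1 CPM in control and 61.5 CPM in Cnot3-cKO, with 8 of 8 higher and none at 0, and 4 haemoglobin genes to 0.279 CPM in control and 1.8 CPM in Cnot3-cKO, with 4 of 4 higher. The part of these in the results was not tested.

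The higher members were Slc22a18, Mest and Mirg. Mest had a germ-like level of 11.97 and 25.2 CPM and a ratio of 1.08 (0.90 to 1.25). In SSC-like cells it had 14.4 and 31.1 CPM, a ratio of 1.11 (0.69 to 1.57), and in Differentiating-like cells 10.9 and 15.9 CPM, a ratio of 0.54 (0.11 to 0.95). In the SSC-like cluster that holds cells of both genotypes the ratio was 0.49 (-0.56 to 1.43), an interval that includes 0. The ratio was 0.40 with the same cluster make-up and 0.24 without the SSC-like cluster of Cnot3-cKO cells. Slc22a18 had 45 and 55 UMIs and a ratio of 1.43 (0.84 to 2.03), and 47 of its Cnot3-cKO UMIs lay in that cluster, without which the ratio was 0.10. Mirg had 70 and 48 UMIs and a ratio of 0.60 (0.04 to 1.15), which was -0.21 without the cluster.

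The lower members were Grb10 and Peg10. Grb10 had a germ-like level of 13.5 and 6.63 CPM and a ratio of -1.03 (-1.30 to -0.76). The Differentiating-like stage, where Grb10 was highest, held a smaller part of the Cnot3-cKO cells. Within that stage Grb10 had 24.7 and 14.7 CPM, a ratio of -0.76 (-1.17 to -0.36). Its larger cluster, of 280 and 75 cells, gave -0.92 (-1.36 to -0.51), and the smaller, of 127 and 13 cells, gave -1.06 (-2.97 to 0.35). The Meiotic-like ratio was -0.60 (-1.59 to 0.31) and that of the unnamed cluster 0.66 (-0.86 to 1.88), so the larger Differentiating-like cluster is the one in which the interval lay below 0. The ratio was -0.68 with the same cluster make-up and -0.33 without the SSC-like cluster of Cnot3-cKO cells. Peg10 had 3.88 and 2.56 CPM and a ratio of -0.60 (-1.07 to -0.16), which turned to 0.34 with the same make-up.

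The promoter windows of Mest and Grb10 are shown because these had the most UMIs of the 5 members past the limit. Each has another annotated start at a distance, and 3′ tags do not show which start was used. CG pairs are in capitals.
Mest, chr6:30737800-30738099, plus strand: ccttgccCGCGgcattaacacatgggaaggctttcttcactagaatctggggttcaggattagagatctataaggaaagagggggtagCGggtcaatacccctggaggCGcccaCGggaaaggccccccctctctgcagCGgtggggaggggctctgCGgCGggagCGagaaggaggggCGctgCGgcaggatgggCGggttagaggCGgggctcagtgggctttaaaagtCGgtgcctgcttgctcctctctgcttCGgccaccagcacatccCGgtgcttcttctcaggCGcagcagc
Grb10, chr11:12037371-12037670, minus strand: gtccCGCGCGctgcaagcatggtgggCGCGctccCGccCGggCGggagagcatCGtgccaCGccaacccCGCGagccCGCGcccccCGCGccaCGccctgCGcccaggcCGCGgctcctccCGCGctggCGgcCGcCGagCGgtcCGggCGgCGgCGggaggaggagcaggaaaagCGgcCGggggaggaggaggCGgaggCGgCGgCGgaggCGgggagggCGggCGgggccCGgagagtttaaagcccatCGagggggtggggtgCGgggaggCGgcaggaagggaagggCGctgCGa
The Mest window holds 17 CG pairs, more than 68.6% of all windows, and 1 match of GGGCGG. The Grb10 window holds 45 CG pairs, more than 98.1% of all windows, and 5 matches of GGGCGG. Neither holds CCAAT or TATAAA on either strand, which says only that these letters are not in the windows.

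An intron of Mest holds the hairpin of miR-335, whose mature sequences follow with the seed in capitals because the host transcript differed. The miRNA itself was not counted.
mmu-miR-335-5p, chr6:30741314-30741336, plus strand: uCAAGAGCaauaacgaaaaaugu
mmu-miR-335-3p, chr6:30741354-30741375, plus strand: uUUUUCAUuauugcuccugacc

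Differences of other members with at least 100 UMIs in the germ-like class stayed within 1.5-fold. On the higher side were Zrsr1 with a ratio of 0.55, Slc38a4 with 0.54, Impact with 0.52 and Meg3 with 0.51. On the lower side were Airn with -0.55 (-1.23 to 0.09), Dlk1 with -0.44, Ascl2 with -0.35 and Zdbf2 with -0.30. Without the SSC-like cluster of Cnot3-cKO cells these ratios turned or came near 0. They were -0.12 for Zrsr1, -0.45 for Slc38a4, -0.04 for Impact and 0.00466 for Meg3. On the other side they were 0.24 for Airn, 0.28 for Dlk1, 0.00405 for Ascl2 and 0.36 for Zdbf2. Dlk1 also turned within stages, with 0.33 (0.14 to 0.52) in Differentiating-like and 0.93 (0.37 to 1.49) in Meiotic-like cells. Phlda2 had a ratio of 0.13, whose interval includes 0, and -0.50 without that cluster. Below 100 UMIs, Asb4 had 7 and 13 UMIs and a ratio of 2.04 (0.60 to 3.60). Zim1 had 43 and 32 UMIs and a ratio of 0.72 (0.01 to 1.41). Igf2 and Rasgrf1 were also past 1.5-fold on the higher side and Peg12 on the lower, with intervals that include 0.

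Cdkn1c depended on which cells were compared. Its ratio was -0.20 (-0.29 to -0.11) in the class as a whole, -0.40 (-0.58 to -0.22) in SSC-like and -0.90 (-1.25 to -0.58) in Differentiating-like cells. The larger Differentiating-like cluster gave -0.88 (-1.44 to -0.36) and the smaller 0.01 (-0.44 to 0.43), the shared SSC-like cluster -0.11 (-0.55 to 0.31) and the unnamed cluster 0.52 (0.28 to 0.75). It was -0.68 without the SSC-like cluster of Cnot3-cKO cells and 0.27 with the same make-up. No single direction therefore holds for Cdkn1c.

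**Figure D3:**
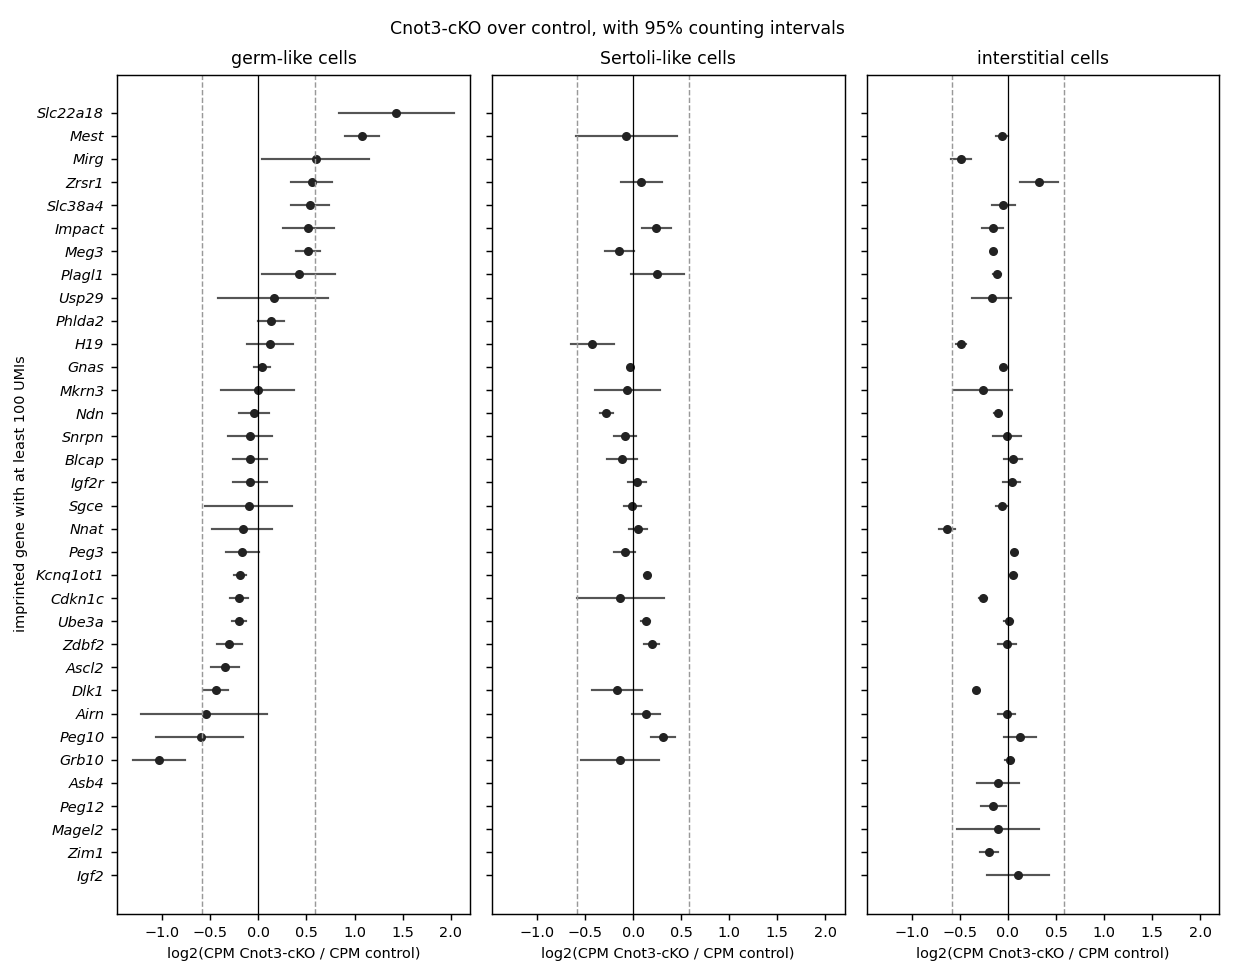
Log2 ratio of Cnot3-cKO to control CPM (x axis) of the imprinted genes with at least 100 UMIs (y axis) in germ-like, Sertoli-like and interstitial cells, with 95% counting intervals as bars and dashed lines at 1.5-fold. Slc22a18, Mest and Mirg lie beyond the right line and Peg10 and Grb10 beyond the left line in the germ-like panel, and Nnat beyond the left line in the interstitial panel.

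In Sertoli-like and interstitial cells the members differed less. Of 23 members with at least 100 UMIs in Sertoli-like cells, 0 were past 1.5-fold in either direction, where 1.1% of all genes tested were higher and 0.977% lower. Their median ratio was -0.03, against 0.04 for all genes. The members furthest from 0 were H19 with -0.42 (-0.65 to -0.20) and Peg10 with 0.31 (0.19 to 0.43). With free RNA subtracted 2 members, H19 and Peg3, were past the limit on the lower side. Markers of other classes moved in Sertoli-like cells as well, in both directions. The 10 germ markers summed to 66.4 CPM in control and 54.9 CPM in Cnot3-cKO, with 1 of 10 higher. The 8 stroma markers went from 110 to 102 CPM, with 3 of 8 higher. The 8 endothelial markers went from 13.7 to 12.9 CPM, with 2 of 8 higher. The 9 macrophage markers went from 3.59 to 4.44 CPM, with 7 of 9 higher and Fcgr1 at 0 in both genotypes. The 4 haemoglobin genes summed to 0.217 CPM in control and 351 CPM in Cnot3-cKO, with 4 of 4 higher and Hbb-bt and Hba-a2 at 0 in control, and the 7 myoid markers to 72.99 CPM in control and 105 CPM in Cnot3-cKO, with 5 of 7 higher and none at 0. The estimated share of free RNA was 3.77% and 8.66% of UMIs. That share pools the markers of all other classes, and the 6 erythroid ones raise it in Cnot3-cKO. They had 352 CPM there against 79.7 CPM in barcodes of at most 100 UMIs. The subtraction that put H19 and Peg3 past the limit used this share. The part of these markers in the Sertoli-like results was not tested.

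In interstitial cells 0 of 31 members were higher, where 1.33% of all genes were, and 1, Nnat, was lower, where 1.07% were, with a median ratio of -0.07 against -0.02 for all genes. In myoid-like cells alone 0 of 30 members were higher, where 215 of 11126 genes were, and 2, Mirg and Nnat, lower, where 101 were. In stroma-like cells 0 of 31 members were past the limit, where 114 of 12158 genes were higher and 100 lower. In macrophage-like cells 0 of 4 were, where 262 of 3611 genes were higher and 237 lower, and 4 members are too few to read. In endothelial-like cells, on few cells, 1 of 10 was higher, where 97 of 1998 genes were, and 3 lower, where 75 were. These were Cdkn1c with 0.90 (0.39 to 1.42), and Dlk1 with -1.47 (-2.18 to -0.80), Mest with -0.93 (-1.46 to -0.40) and Meg3 with -0.89 (-1.33 to -0.45). The estimated share of free RNA in endothelial-like cells was 42.8% and 29.2% of UMIs. Free RNA was not taken off these ratios, and its part in them was not tested.

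Nnat had 52.3 and 33.7 CPM in interstitial cells, a ratio of -0.63 (-0.72 to -0.55). The main myoid-like cluster had 67.7 and 37.6 CPM, a ratio of -0.85 (-0.98 to -0.72), and stroma-like cluster 3, led by Cyp26b1 and Oxtr, had 45.5 and 29.9 CPM, a ratio of -0.61 (-0.79 to -0.42). In stroma-like cluster 2, led by Clec3b, the ratio was -0.14 (-0.39 to 0.12), and in stroma-like cluster 9, led by genes of dividing cells, -0.15 (-0.33 to 0.02). The lower Nnat level was thus beyond counting error in 2 of these 4 clusters. In Sertoli-like cells Nnat had a ratio of 0.05 (-0.04 to 0.14), and Blcap, in whose intron it lies, had 0.06 (-0.04 to 0.15) in interstitial cells. A lower sum can come from fewer expressing cells or from less RNA per cell. Thinned to 7500 UMIs, Nnat had a UMI in 30.2% (27.7 to 32.8) of control and 18.8% (16.9 to 20.8) of Cnot3-cKO myoid-like cells, and in 1.82% and 1.59% of macrophage-like cells. Without thinning these were 42.6% and 26.6%, at medians of 14296 and 13274 UMIs, and 3.64% and 3.17%, at medians of 17815 and 16809.

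H19 was lower in Cnot3-cKO in each of these 4 clusters, within 1.5-fold or just past it. Its ratio was -0.51 (-0.60 to -0.43) in the main myoid-like cluster and -0.34 (-0.44 to -0.25), -0.70 (-0.84 to -0.55) and -0.38 (-0.52 to -0.23) in stroma-like clusters 2, 3 and 9. Mirg had -0.66, -0.38, -0.41 and -0.56 (-1.20 to 0.05) in the same order. Dlk1 had -0.05 (-0.18 to 0.09) in the myoid-like cluster and -0.19, -0.37 and -0.31 in the stroma-like ones. Its neighbour Meg3 had 0.10, -0.12, -0.12 and -0.32. A further myoid-like cluster of 2 control and 90 Cnot3-cKO cells was not compared, and without it Nnat was again the 1 lower member. Other markers moved in interstitial cells. The 10 Sertoli markers summed to 90.1 CPM in control and 149 CPM in Cnot3-cKO, with 10 of 10 higher. The 10 germ markers summed to 29.8 CPM in control and 16.2 CPM in Cnot3-cKO, with 0 of 10 higher, and the 6 erythroid markers to 151 CPM in control and 1.57 CPM in Cnot3-cKO, with 0 of 6 higher. None of these lists had a marker at 0, and their part in the results was not tested.

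**Figure D4:**
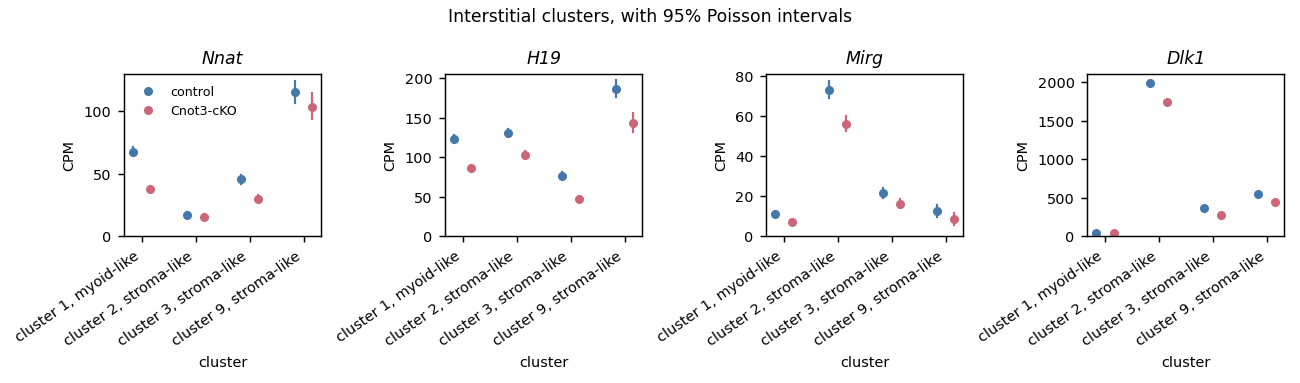
CPM of Nnat, H19, Mirg and Dlk1 (panels) in 4 interstitial clusters (x axis) of control (blue) and Cnot3-cKO (red), with 95% Poisson intervals as bars and axes that start at 0. The red points of H19 and Mirg lie below the blue ones in each of the 4 clusters, and those of Nnat lie furthest below in clusters 1 and 3.

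Related genes outside the list place these values. Of 38 other imprinted genes 34 had a row and 25 had at least 100 UMIs. Of the 25, 9 were highest in the germ-like class, 5 in Sertoli-like, 2 in interstitial, 2 in macrophage-like and 7 in endothelial-like control cells, against 34.2%, 19%, 16.3%, 14.1% and 16.4% of all genes tested. In the germ-like class 0 of 19 were higher past 1.5-fold (7.37% of all genes) and 2 were lower (3.74%). They were Dio3, a deiodinase gene of the Dlk1-Meg3 region, with 2.51 and 1.47 CPM, and Ppp1r9a, a gene near Peg10, with 20.8 and 13.3 CPM. With the same germ cluster make-up 0 of 17 tested were past the limit in either direction, and without the SSC-like cluster of Cnot3-cKO cells Atp10a and Cobl were higher and the same 2 genes lower. Of 10 genes that read or write imprints, 6 were highest in the germ-like class of control, where 34.2% of all genes were, and 0 of 10 were past 1.5-fold there in either direction. Among them Dnmt1, which maintains DNA methylation, had 152 and 183 CPM and its partner Uhrf1 98.7 and 133 CPM. Zfp57, a zinc finger protein that protects imprints in the embryo, had 1.87 and 2.37 CPM in the germ-like class and 37.7 and 34.9 CPM in myoid-like cells.

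Of 14 IGF pathway genes 13 were tested in the germ-like class, where 0 were higher past 1.5-fold (7.37% of all genes) and 4 lower (3.74%). They were the receptor genes Igf1r, with 100.3 and 66.5 CPM, and Insr, with 1.69 and 1.09 CPM, the adaptor gene Irs2, with 6.22 and 4.12 CPM, and the binding protein gene Igfbp5, with 1.91 and 0.994 CPM. The ratios of Igf1r, -0.59, and Irs2, -0.59, lay just past the limit. With the same germ cluster make-up 0 of 11 tested were past it, and Igf1r had -0.47 and Irs2 -0.06. Without the SSC-like cluster of Cnot3-cKO cells 4 of 11 were lower, namely Igf1r, Irs2, Igfbp6 and Igf2bp2. In interstitial cells 1 of the 14, the binding protein gene Igfbp3, was higher (1.33% of all genes), with 25.5 and 57.6 CPM, and 1, Igf2bp1, a gene for an RNA-binding protein, was lower (1.07%), with 1.37 and 0.885 CPM. Igfbp3 is among the leading genes of the myoid-like cluster of 90 Cnot3-cKO cells, and without that cluster its ratio was 0.66 in place of 1.17. Igfbp5 was then past the limit on the lower side too, with -0.73 in place of -0.31.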

How the data were processed

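CD9+/THY1+ testis cells of P8 mice were read with 10x Genomics 3′ libraries. The authors made the deposited UMI counts with Cell Ranger 3.0.1 (per the labels) on mm10, and each matrix merges the 2 samples of a genotype. Among the 3000 largest barcodes the 99th percentile of UMIs was taken, and barcodes above it divided by 10 were called cells. Barcodes over 20% mitochondrial UMIs were removed and no upper bound was set, since the bounds stated by the study (10% mitochondrial UMIs, 2 SD) remove most germ barcodes. More barcodes remained than the study counts as cells. Cells were scaled to 10000 counts and clustered without the members on 2500 variable genes, 30 principal components and 15 neighbours at resolution 0.5 (scanpy 1.11.5, leidenalg 0.10.2). A cluster was named where at least 3 markers were raised and its mean log2 score reached 0.5, limits set after the data were seen. The 2 germ clusters led by somatic genes were left out. Scrublet called 499 control and 454 Cnot3-cKO barcodes as doublets, which were kept.

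UMIs were summed by class with exact Poisson and conditional binomial intervals, and members with at least 100 UMIs over both genotypes were compared at 1.5-fold. The code was tested on simulated data. Free RNA was estimated from barcodes of at most 100 UMIs, scaled by the level of other classes' markers, erythroid ones included, in each class. Members and lists were chosen with earlier results of these data known. Every member was accounted for, those past 1.5-fold in the germ-like class were all named, and other genes were named from the lists. Positions are from GENCODE M21, and sequences from RefSeq, which held a promoter window for 31 members. Alternatives were the study's filters, doublets left out, free RNA subtracted, resolution 1, libraries centred, 30 UMIs, totals without mitochondrial UMIs, a 2-fold limit and other choices of germ cells. Of the erythroid marker list only the haemoglobin genes, chosen after their values were seen, are reported for germ-like cells. The whole list is given for interstitial cells and, beside the haemoglobin genes, for Sertoli-like cells.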

Additional observations from a re-analysis of the deposited data

Results flagged for a closer look

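Some members had intervals wholly above 0 in one cell class and wholly below 0 in another, under the same contrast of Cnot3-cKO over control. With 1 matrix per genotype the difference between classes was not tested, and each value below is the gap between the log2 ratios of the classes. Between germ-like cells, where the gene was higher, and interstitial cells, where it was lower, the gap was 1.14 for Mest, 1.09 for Mirg, 0.68 for Impact, 0.67 for Meg3 and 0.53 for Plagl1. The interstitial class pools myoid-like and stroma-like cells. Taken apart, Mest had 0.07 (-0.12 to 0.26) in myoid-like and 0.03 (-0.04 to 0.09) in stroma-like cells. Mest was thus lower in neither, and no opposite direction can be read for it. Meg3 had 0.15 in myoid-like and -0.12 in stroma-like cells, and Plagl1 had 0.14 and -0.09. Mirg was lower in both, with -0.60 and -0.37. Between Sertoli-like cells, where the gene was higher, and germ-like cells, where it was lower, the gap was 0.91 for Peg10, 0.49 for Zdbf2, 0.33 for Kcnq1ot1 and 0.33 for Ube3a. Kcnq1ot1 was also higher in interstitial than in germ-like cells by this measure, with a gap of 0.25, and Impact was higher in Sertoli-like and lower in interstitial cells, with a gap of 0.40. The SSC-like cluster of 282 Cnot3-cKO cells and 1 control cell enters each germ-like ratio above. Without it the germ-like ratio turned for Kcnq1ot1 from -0.19 to 0.22, for Ube3a from -0.20 to 0.24, for Zdbf2 from -0.30 to 0.36, for Mirg from 0.60 to -0.21, for Plagl1 from 0.42 to -0.14 and for Impact from 0.52 to -0.04. It fell to 0.0047 for Meg3 and to 0.24 for Mest and was -0.66 for Peg10. The opposite directions between classes therefore did not hold without that cluster for Kcnq1ot1, Ube3a, Zdbf2, Mirg, Plagl1 and Impact in its germ-like contrast. Meg3 was then near 0 in germ-like cells, so no opposite direction can be read for it either. With the same germ cluster make-up the germ-like ratio of Peg10 was 0.34.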

How the results depend on the processing

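Of 93 recomputed counts, 79 stayed within 1.5 times the reported one. No share of all genes is given here for the recomputed counts. The count of members higher in germ-like cells went from 3 to 0 under the study's stated filters, 5 with a minimum of 30 UMIs, 0 without the SSC-like cluster of Cnot3-cKO cells and 0 with the same germ cluster make-up. The count of lower members went from 2 to 1 with centred libraries, 1 at the 2-fold limit, 1 with the clusters led by somatic genes kept, 1 with cells taken as barcodes of 10 Ddx4 and Dazl UMIs, and 1 with the same make-up. In Sertoli-like cells the count of lower members went from 0 to 2 with free RNA subtracted and to 1 with a minimum of 30 UMIs, and in interstitial cells from 1 to 0 at the 2-fold limit. Members highest in macrophage-like cells went from 1 to 0 under the stated filters and those highest in endothelial-like cells from 4 to 11 with free RNA subtracted. Of the called ratios, 2 turned: Mirg in germ-like cells to -0.21 without the SSC-like cluster of Cnot3-cKO cells, and Peg10 to 0.34 with the same make-up. The alternatives of cluster make-up and left-out clusters were chosen after seeing the data. For the others the cause was not tested. Depth limits the macrophage-like and endothelial-like values, where a count of 0 allows up to 2.45 to 5.39 CPM. No paired analysis was possible because each matrix merges its samples, and leaving out a replicate was not possible for the same reason.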
